A study of Mus musculus with 22 samples.

Results

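The 39 interferon response genes are a list of transcripts that cells make after interferon reaches them, and 36 of the 39 could be read on the arrays. A gene was read where a probe set carried its symbol and no other, and where several did, the gene was read from whichever varied most over the 22 arrays (by interquartile range). Isg15 and Tgtp1 were represented by probe sets that also carry another symbol, and Ifi44 by none that carries it alone, so these 3 have no value here. The 36 belong to 18194 genes measured. Of the 9097 genes that passed a filter on variance 35 are interferon response genes, and Mx2, which lay between 3.55 and 4.62 on all arrays, did not pass it. By type, 7 of the 36 are GTPases known for their response to interferon gamma. The other 29 are counted as type I type, among them Irf1, which both interferon types induce.

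RNA of colonic mucosa was hybridized to 22 Affymetrix mouse expression arrays. All mice carried 2 floxed Pparg alleles. The study kept them in a mixed FVB/C57BL/6 and in a C57BL/6 background, and which of these gave the arrays is not stated in the sources used here. VC- mice lack Cre and keep PPAR γ, a nuclear receptor that restrains inflammatory genes, whereas in VC+ mice the Villin promoter drives Cre in intestinal epithelial cells and removes it there, leaving the gene in the immune and stromal cells of the same tissue. Mice of both genotypes received 2.5% dextran sodium sulfate (DSS), which injures the colonic epithelium, in the drinking water, and were sampled at day 0 (no DSS), day 2 and day 7. VC- mice contributed 3, 3 and 4 arrays at these days and VC+ mice 3, 5 and 4. The ages of the mice are not given in the sources used here, and it is not stated if every array came from its own mouse, so all p-values measure the spread between these samples. Values are log2 signals, and a log2 signal compares a gene between arrays but not with another gene.

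Type I interferons (interferon alpha and beta) signal through the Ifnar1 and Ifnar2 receptor chains to a complex that holds Stat2 and Irf9 and binds an element called ISRE in the promoters of antiviral genes. Interferon gamma, made by T cells and natural killer cells, signals through Ifngr1 and Ifngr2 to an element called GAS and induces, among others, the guanylate-binding proteins and the immunity-related GTPases that attack vacuoles holding microbes. In the healthy gut the microbiota is known to keep a low tonic level of type I interferon signaling.

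The promoters show what the members share in sequence. Of the 36 measured genes and the 3 others, 29 have a promoter in the RefSeq table (250 bases before to 50 after the start, build GRCm38.p6). The ISRE-like letters GAAANNGAAA, searched on both strands, occurred in promoters of 18 of these 29 genes (62.1%), against 3.99% of 27025 genes in the table. They were present for 12 of 22 type I type genes (54.5%) and for 6 of 7 GTPases (85.7%). These 7 include Tgtp1, which has no array value, and lack Iigp1, which has no promoter there. The GAS-like letters TTCNNNGAA, which read the same on both strands, occurred in 10 of the 29 (34.5%), against 9.55% of all genes. By type these were 7 of 22 type I type genes (31.8%) and 3 of 7 GTPases (42.9%). Such a match describes letters and is not a measured binding site. The stretches here, written 5′ to 3′ along the gene with the matching letters in capitals, are given for 2 antiviral effectors, the oligoadenylate synthetase Oas3, a guanylate-binding protein and 4 immunity-related GTPases, chosen after the matches were seen. They lie at Ifit1 chr19:34640775-34640823 (plus strand), Ifit3 chr19:34583363-34583426 (plus strand), Oas3 chr5:120777715-120777744 (minus strand), Gbp2 chr3:142620594-142620623 (plus strand), Irgm1 chr11:48871425-48871460 (minus strand), Igtp chr11:58199501-58199541 (plus strand), Irgm2 chr11:58214892-58214932 (plus strand) and Tgtp1 chr11:48992304-48992344 (minus strand), each ending before the start of its gene.
Ifit1: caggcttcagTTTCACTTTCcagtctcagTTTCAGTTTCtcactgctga
Ifit3: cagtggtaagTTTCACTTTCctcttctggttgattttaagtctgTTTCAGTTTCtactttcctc
Oas3: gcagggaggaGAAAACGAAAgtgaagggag
Gbp2: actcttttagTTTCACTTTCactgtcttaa
Irgm1: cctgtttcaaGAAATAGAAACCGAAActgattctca
Igtp: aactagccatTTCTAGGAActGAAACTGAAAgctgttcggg
Irgm2: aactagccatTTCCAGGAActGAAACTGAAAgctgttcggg
Tgtp1: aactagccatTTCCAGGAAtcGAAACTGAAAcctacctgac
Ifit1 and Ifit3 each hold 2 ISRE-like matches, on the reverse strand. Irgm1 holds 2 that overlap. In Igtp, Irgm2 and Tgtp1, members of 1 gene family whose promoters resemble each other, a GAS-like match ends 2 bases before an ISRE-like match. That arrangement, TTCNNNGAANNGAAANNGAAA, was found in 5 of 27025 genes, of which 3 are these members.

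Some arrays carried marks that touch the values below. The colonocyte markers were high on all arrays, with a mean log2 signal between 9.97 and 13.19 over the 8 of them, lowest on VC- day 7 replicate 2. Prss2, a trypsinogen of the acinar pancreas, stood at 13.77 on VC- day 0 replicate 3, 14.74 on VC- day 7 replicate 2 and 11.20 on VC+ day 7 replicate 4, while the remaining 19 arrays had 3.27 to 4.20. Hoxb13, which marks the distal colon, was 7.29 to 9.67 on VC- day 0 and 2.88 to 3.08 on VC- day 2. It was 3.81, 2.86, 3.03 and 9.62 on VC- day 7. In VC+ mice it was 12.42, 3.09 and 2.88 at day 0 and 3.10, 3.31, 3.07 and 6.88 at day 7. Xist, which marks female cells, was above 8 on VC- day 0 replicate 2 and VC- day 2 replicates 2 and 3. In VC+ mice it was above 8 on day 0 replicate 3 and day 2 replicates 4 and 5. All day 7 arrays had 2.03 to 2.08, so comparisons of day 7 with the earlier days are not balanced in Xist. Correlations between arrays of a group were 0.900 or more except among VC- day 7, where the lowest was 0.668. Pparg itself stood at 9.63, 9.58 and 9.61 in VC- mice at day 0 and at 8.62, 8.50 and 8.83 in VC+ mice, without overlap. It was 9.87 to 10.96 in VC- and 6.87 to 9.54 in VC+ mice at day 2, and 7.39 to 9.82 and 6.26 to 10.35 at day 7, where the genotypes overlap. Whether its probe set lies in the deleted exons is not given in the sources used here, so it does not check the labels. In whole mucosa, fewer cells of a type and less RNA per cell cannot be told apart.

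The interferon response genes varied together from array to array, also between arrays of 1 group. The mean of the 29 type I type genes, each taken relative to its own mean over the 22 arrays, in untreated VC- mice was 0.82, 1.24 and 1.08, then -0.92, 0.25 and 0.59 at day 2, and 0.20, -2.13, -0.47 and -0.31 at day 7. All 3 VC- day 0 arrays lay above all other VC- arrays. In VC+ mice the same mean was 0.16, 0.95 and 0.22 at day 0, 2.01, 0.65, -1.26, -1.54 and -1.42 at day 2, and 0.37, 0.12, -0.93 and 0.32 at day 7. The VC+ day 2 arrays held the highest and the lowest values among VC+ arrays. All 36 genes were above their own mean on replicate 1, while 1 of 36 was above it on replicate 3 and 0 of 36 on replicates 4 and 5. On VC- day 7 replicate 2, 1 of 36 genes was above its mean.

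**Figure D1:**
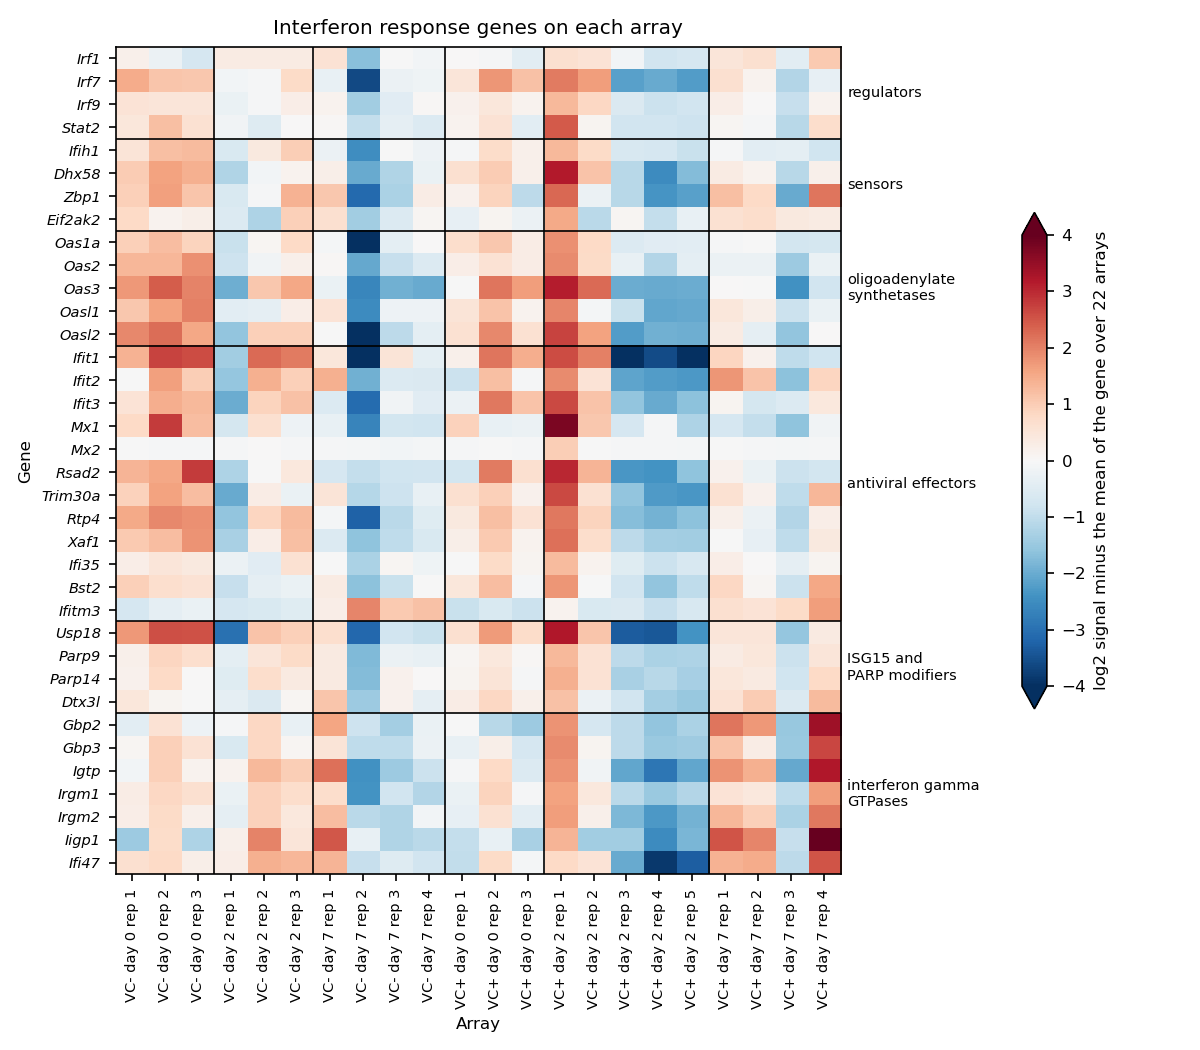
Log2 signal of the 36 measured interferon response genes (rows, grouped by role) on the 22 arrays (columns, grouped by genotype and day), as the difference from the mean of each gene over all arrays, red above and blue below. VC+ day 2 replicate 1 is red in 36 of 36 genes, VC+ day 2 replicates 4 and 5 lie below the mean in 36 of 36 (close to it for Mx2, white), and the GTPases at the bottom are reddest on VC+ day 7 replicate 4.

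The GTPases followed a partly different course. Their mean in VC- mice was -0.11, 0.80 and 0.06 at day 0, -0.10, 1.17 and 0.53 at day 2, and 1.44, -1.28, -1.07 and -0.64 at day 7. In VC+ mice it was -0.41, 0.26 and -0.64 at day 0, 1.56, -0.13, -1.50, -2.30 and -1.85 at day 2, and 1.56, 1.18, -1.33 and 2.82 at day 7. The GTPase mean was above 1 on 3 of the 4 VC+ day 7 arrays, on VC- day 7 replicate 1, on VC+ day 2 replicate 1 and on VC- day 2 replicate 2, and on none of the day 0 arrays. The type I type mean exceeded the GTPase mean on 6 of 6 day 0 arrays, by 0.44 to 1.03. It was below the GTPase mean on 2 of 3 VC- day 2 arrays (-0.82 and -0.92) and on 0 of 5 VC+ day 2 arrays. At day 7 it was below on 2 of 4 VC- arrays (-1.24 and -0.85) and on 3 of 4 VC+ arrays (-1.19, -1.06 and -2.50). All 7 GTPases, together with Irf1 and Dtx3l, had their highest signal on VC+ day 7 replicate 4, while 24 of the 36 genes had theirs on VC+ day 2 replicate 1. The lowest signal fell on VC- day 7 replicate 2 for 21 genes and on VC+ day 2 replicate 4 for 10.

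**Figure D2:**
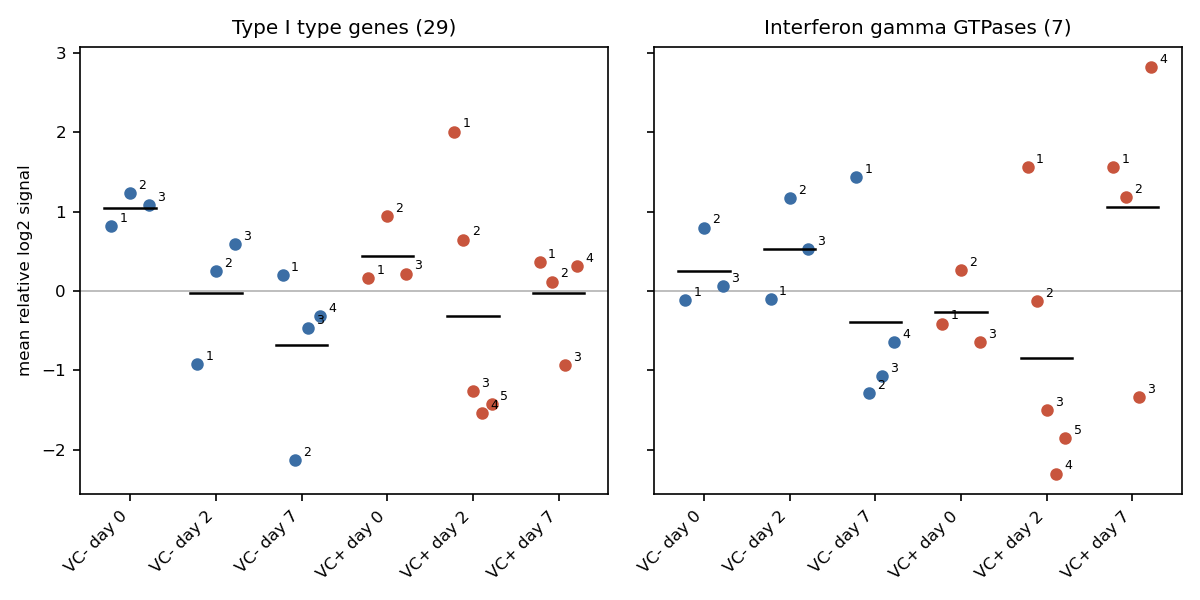
Mean relative log2 signal of the 29 type I type genes (left) and the 7 GTPases (right) on each array (points, numbered by replicate, blue VC-, red VC+), with the mean of each group as a line. The type I type mean lies between 0.82 and 1.24 on the VC- day 0 arrays and reaches 2.01 on VC+ day 2 replicate 1, and the GTPase mean reaches 2.82 on VC+ day 7 replicate 4.

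At day 7 of DSS in VC- mice, Oas2, Oas3, Rtp4 and Xaf1 fell and Ifitm3 rose against day 0. These are 4 falls and 1 rise among 35 genes tested, where 5.06% of all genes tested passed downward and 5.53% upward (limma, adjusted p under 0.05). The estimate was negative for 33 of the 35, against 55.2% of all genes, with a median log2 fold change of -1.50 against -0.09 over all genes. The type I type median was -2.07 and the GTPase median -0.77. For 20 of the 35, all type I type, the 4 day 7 arrays lay below all 3 day 0 arrays, against 12.3% of all genes. Ifitm3 alone lay above, against 8.62%. The count was also 20, of the same genes, without VC- day 7 replicate 2 and without the 3 arrays with Prss2, against 14.8% and 18.3% of all genes. Without those 3 arrays, however, none of the 4 falls passed the test (adjusted p = 0.17 for Oas2, 0.249 for Oas3, 0.274 for Rtp4 and 0.288 for Xaf1, limma). At an unadjusted p under 0.05, 14 of the 35 were lower and 1 higher, against 17.6% and 14.7% of all genes. Leaving out VC- day 0 replicate 2 or 3, or VC- day 7 replicate 2, left 1 call. Leaving out VC- day 7 replicate 1 gave 12 calls, and leaving out VC+ day 2 replicate 1 gave 11. With VC- day 0 replicate 1, VC- day 7 replicate 3 or 4, any VC+ day 0 array or VC+ day 7 replicate 1 or 2 left out there were 2, and with VC- day 2 replicate 2 or VC+ day 2 replicate 3 left out there were 3. Ifitm3 was called whichever array was left out. The colonocyte marker mean, relative to the mean of each gene, had a lowest value of 0.58 in untreated VC- mice, whereas the day 7 arrays lay between -2.35 and 0.31, and its part in the falls was not tested.

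In VC+ mice at day 7, Ifitm3 rose and no other member passed the test, where 1.32% of all genes rose and 0.429% fell. The type I type median was -0.70, with 21 of 28 estimates negative, and the GTPase median was 1.04, with 7 of 7 positive. The median over all genes was -0.02. Without VC+ day 7 replicate 3 the median over the 35 turned from -0.27 to 0.11. It was -0.03 with VC+ day 0 replicate 2 left out, -0.45 with VC+ day 0 replicate 3 left out and -0.48 with VC+ day 7 replicate 4 left out. The 4 day 7 arrays all lay below day 0 for 5 genes (Oas1a, Oas2, Oasl2, Usp18 and Rtp4) and above it for Ifitm3 and Eif2ak2, against 8.61% and 9.61% of all genes. The comparisons of day 7 with day 0 and with day 2 within a genotype share the day 7 arrays.

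**Figure D3:**
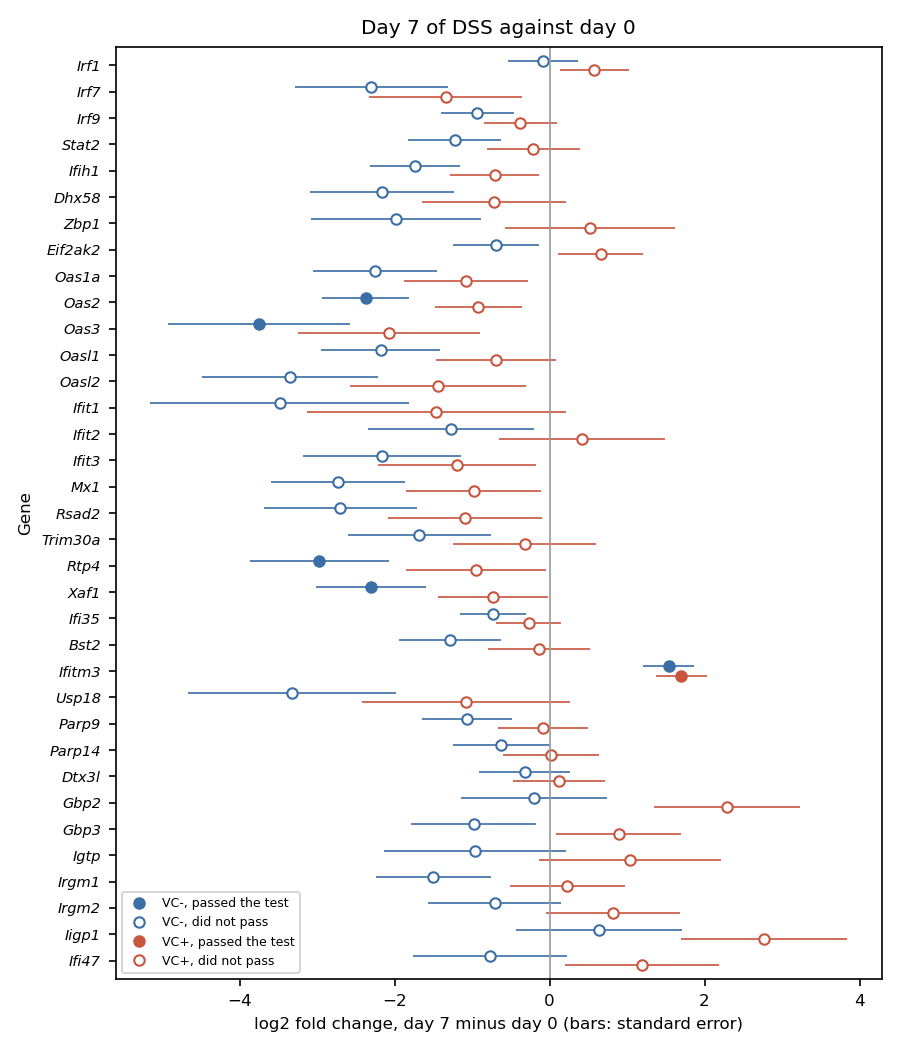
Log2 fold change at day 7 of DSS against day 0 for the 35 interferon response genes tested, in VC- (blue) and VC+ mice (red), with the standard error as bars. Filled points passed the test (adjusted p under 0.05). Type I type estimates lie mostly left of 0, farther in VC- mice, while the 7 GTPases at the bottom lie right of 0 in VC+ mice.

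None of the 4 regulators passed the test at day 7. Irf7, the transcription factor that amplifies type I interferon production, had the widest range of group means among them. It stood at 9.90, 9.52 and 9.50 in VC- mice at day 0 and at 8.13, 4.81, 8.19 and 8.26 at day 7. The 4 day 7 arrays were all lower, and replicate 2 lay far below the other 3, with a log2 fold change of -2.30 ± 0.99 (SE, adjusted p = 0.121). In VC+ mice Irf7 was 8.92, 10.19 and 9.61 at day 0 and 9.06, 8.56, 7.24 and 8.09 at day 7, and the groups overlapped. Irf9 and Stat2, partners in the ISRE-binding complex, had estimates of -0.93 and -1.22 in VC- mice and -0.38 and -0.21 in VC+ mice. Irf1, a factor that both interferon types induce, had estimates near 0 in VC- mice (-0.08) and of 0.58 in VC+ mice.

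The 4 sensors of viral nucleic acid did not pass the test either. Dhx58, an RNA helicase that modulates the sensing of viral RNA, stood at 7.12, 7.73 and 7.53 in VC- mice at day 0 and at 6.35, 4.09, 4.90 and 5.86 at day 7, all lower (-2.16 ± 0.93, adjusted p = 0.121). Its VC+ values were 6.75, 7.12 and 6.30 at day 0 and 6.45, 6.26, 5.01 and 6.32 at day 7, which overlap. Ifih1, the sensor MDA5 of long double-stranded RNA, had estimates of -1.73 and -0.71 in VC- and VC+ mice. Those of Zbp1, a sensor of Z-form nucleic acid, were -1.98 and 0.52, and those of Eif2ak2, the kinase PKR, were -0.69 and 0.66. For Eif2ak2 in VC+ mice the sign depended on the probe set, since its 2 others gave -0.39 and -0.18.

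The oligoadenylate synthetases, which make the messenger that activates RNase L, had negative estimates at day 7 in both genotypes for 5 of 5 genes, and 2 of them passed the test in VC- mice. Oas2 stood at 9.0, 8.99 and 9.48 in VC- mice at day 0 and at 7.72, 5.62, 6.73 and 7.10 at day 7, a fall by 2.37 on the log2 scale (SE 0.56, 5.15-fold, adjusted p = 0.0185). All 4 day 7 arrays lay below the day 0 arrays. In VC+ mice Oas2 was 7.91, 8.24 and 7.97 at day 0, below all VC- day 0 arrays, and 7.44, 7.42, 6.21 and 7.4 at day 7. The VC+ groups did not overlap either, but the estimate of -0.92 ± 0.56 did not pass the test (adjusted p = 0.517).

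Oas3 stood at 7.18, 7.87 and 7.45 in VC- mice at day 0 and at 5.19, 2.83, 3.52 and 3.45 at day 7, a fall by 3.75 (SE 1.17, 13.5-fold, adjusted p = 0.0474). The VC+ arrays had 5.45, 7.59 and 7.14 at day 0 and 5.46, 5.45, 3.04 and 4.68 at day 7, which overlap (-2.07, adjusted p = 0.476). Over the whole table the medians of the arrays were 3.41 to 3.55, so Oas3 was within or below that range on VC- day 7 replicates 2, 3 and 4. Oas1a, Oasl1 and Oasl2 had estimates of -2.25, -2.18 and -3.35 in VC- mice and -1.08, -0.69 and -1.44 in VC+ mice.

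Among the 11 antiviral effectors tested, Rtp4 and Xaf1 fell in VC- mice and Ifitm3 rose in both genotypes. Rtp4, a chaperone of receptors at the cell surface that also restricts flaviviruses, stood at 12.07, 12.47 and 12.36 in VC- mice at day 0 and at 10.48, 7.32, 9.46 and 10.07 at day 7, a fall by 2.97 (SE 0.90, 7.82-fold, adjusted p = 0.0436). In VC+ mice it was 10.94, 11.75 and 11.12 at day 0 and 10.76, 10.32, 9.37 and 10.81 at day 7, all lower (-0.95, adjusted p = 0.716). Rtp4 thus had no overlap between day 0 and day 7 in either genotype, with the larger distance in VC- mice.

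Xaf1, which binds the apoptosis inhibitor XIAP, stood at 10.75, 10.92 and 11.49 in VC- mice at day 0 and at 9.14, 8.10, 8.69 and 9.08 at day 7, a fall by 2.30 (SE 0.71, 4.93-fold, adjusted p = 0.0454). Its VC+ values were 9.93, 10.76 and 9.84 at day 0 and 9.67, 9.36, 8.68 and 10.09 at day 7, which overlap. A 2nd probe set of Xaf1, with low signal (3.04 to 3.58), gave -0.06 in VC- mice.

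Ifitm3, a membrane protein that blocks the entry of enveloped viruses, went the other way. It stood at 12.12, 12.41 and 12.52 in VC- mice at day 0 and at 13.05, 14.74, 13.82 and 13.96 at day 7, a rise of 1.54 ± 0.33 (SE, 2.91-fold, adjusted p = 0.0105). The VC+ arrays had 11.90, 12.17 and 11.91 at day 0 and 13.43, 13.32, 13.56 and 14.44 at day 7, a rise of 1.70 ± 0.33 (3.24-fold, adjusted p = 0.00991). All day 7 arrays of both genotypes were above all day 0 arrays. Without VC+ day 0 replicate 3 the VC+ rise did not pass the test (adjusted p = 0.063). Its rise against day 2 also passed the test, by 1.70 in VC- mice (adjusted p = 0.00949) and 1.43 in VC+ mice (adjusted p = 0.00813), where 3.45% and 4.76% of all genes rose, and no other member passed in these 2 comparisons, where 2.15% and 2.83% of all genes fell. Its relatives Ifitm1 and Ifitm2, taken from the wider pathway list, rose in VC- mice by 3.78 and 1.75 (adjusted p = 0.00107 and 0.0157), and Ifitm1 rose in VC+ mice by 3.11 (adjusted p = 0.0074).

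Neutrophil markers, 5 measured of 7 listed and 3 tested, were higher at day 7, as Ifitm3 was. Their mean log2 signal was 2.93 to 3.02 on the day 0 arrays of both genotypes and 5.22 to 9.84 at day 7, and none of the 5 stayed under 3 on all arrays. Macrophage and monocyte markers, 8 measured of 9 listed, were also higher at day 7 by their estimates, for 8 of 8 in both genotypes. Of these 5 passed the test in VC- mice and 3 in VC+ mice, where 5.53% and 1.32% of all genes rose, with medians of 1.79 and 1.83. The part of these cells in the rise of Ifitm3 was not tested.

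The other effectors did not pass the test. Ifit1, which binds viral RNA and is given in full after its values were seen, had the widest range of all members, from 3.01 on VC- day 7 replicate 2 to 11.28 on VC- day 0 replicate 2. It stood at 9.95, 11.28 and 11.19 in VC- mice at day 0 and at 9.03, 3.01, 9.09 and 8.17 at day 7, all lower (-3.48 ± 1.67, adjusted p = 0.156). In VC+ mice it was 8.77, 10.72 and 10.01 at day 0 and 9.42, 8.75, 7.56 and 7.78 at day 7, which overlap. Its relatives Ifit2 and Ifit3 had estimates of -1.27 and -2.16 in VC- mice and 0.42 and -1.19 in VC+ mice. Those of Mx1, a dynamin-like GTPase, were -2.73 and -0.98, and those of Rsad2 (viperin) -2.70 and -1.09. Trim30a, Ifi35 and Bst2 (tetherin, which holds budding virus at the cell surface) had estimates of -1.68, -0.73 and -1.28 in VC- mice and -0.32, -0.27 and -0.14 in VC+ mice.

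**Figure D4:**
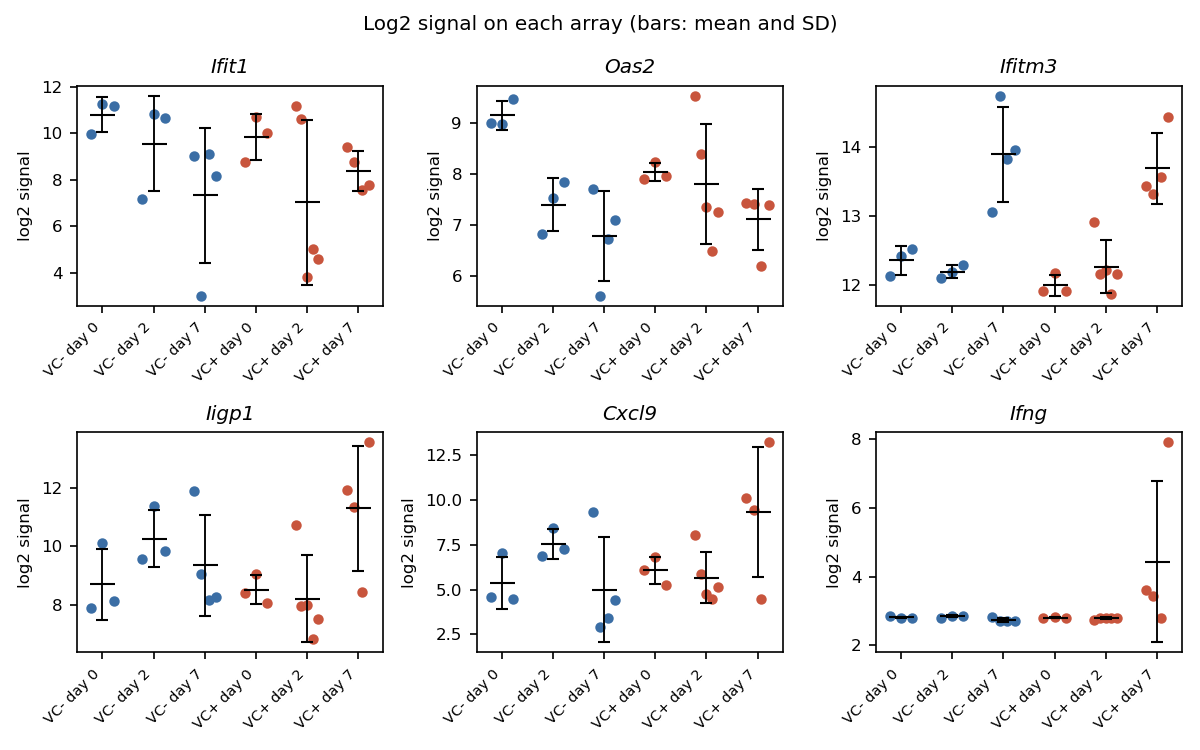
Log2 signal on each array (points, blue VC-, red VC+) with the mean and SD of each group, for 4 interferon response genes and for Cxcl9 and Ifng. Ifit1 and Oas2 are lower on all VC- day 7 arrays than on all VC- day 0 arrays, Ifitm3 is higher at day 7 in both genotypes, and Iigp1, Cxcl9 and Ifng have their highest value on VC+ day 7 replicate 4.

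Among the modifiers, Usp18, the protease that removes ISG15 from proteins and dampens the type I receptor, had the widest range of group means. It stood at 9.51, 10.36 and 10.32 in VC- mice at day 0 and at 8.45, 4.64, 7.00 and 6.88 at day 7, all lower (-3.32 ± 1.34, adjusted p = 0.104). Its VC+ values were 8.4, 9.48 and 8.49 at day 0 and 8.24, 8.24, 6.23 and 8.13 at day 7, also all lower, with a smaller estimate of -1.08. Parp9 and its partner Dtx3l, an ADP-ribosyltransferase and a ubiquitin ligase, had estimates of -1.06 and -0.32 in VC- mice and -0.08 and 0.12 in VC+ mice. Those of Parp14, another ADP-ribosyltransferase, were -0.62 and 0.02.

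The 7 GTPases were all higher in VC+ mice at day 7 than at day 0 by their estimates, and none passed the test. Iigp1, an immunity-related GTPase that is recruited to vacuoles of Toxoplasma, had the widest range of group means. It stood at 7.91, 10.10 and 8.14 in VC- mice at day 0 and at 11.87, 9.07, 8.18 and 8.29 at day 7, which overlap (0.64 ± 1.07, adjusted p = 0.696). The VC+ arrays had 8.43, 9.07 and 8.09 at day 0 and 11.90, 11.34, 8.44 and 13.53 at day 7 (2.77 ± 1.07, adjusted p = 0.24). Replicates 1, 2 and 4 were above all VC+ day 0 arrays, and replicate 3 lay among them.

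Gbp2, a guanylate-binding protein also chosen after its values were seen, had the same order of VC+ day 7 arrays. It was 11.02, 9.92 and 9.56 in VC+ mice at day 0 and 13.18, 12.75, 9.50 and 14.41 at day 7 (2.29 ± 0.94, adjusted p = 0.269). Without VC+ day 7 replicate 3 its estimate was 3.28 and passed the test (adjusted p = 0.0327). In VC- mice Gbp2 was 10.60, 11.60 and 10.84 at day 0 and 12.62, 10.20, 9.67 and 10.77 at day 7. The estimates of Gbp3, Igtp, Irgm1, Irgm2 and Ifi47 were 0.89, 1.04, 0.23, 0.82 and 1.19 in VC+ mice and -0.98, -0.96, -1.50, -0.71 and -0.77 in VC- mice.

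Interferon gamma and the chemokines it induces were read beside the GTPases. Ifng lay between 2.71 and 2.86 on 19 arrays and at 3.6, 3.43 and 7.89 on VC+ day 7 replicates 1, 2 and 4, the 3 arrays of that group on which the GTPases were high. The GTPase mean was also above 1 on VC- day 7 replicate 1, VC+ day 2 replicate 1 and VC- day 2 replicate 2. Ifng was low on these, at 2.83, 2.74 and 2.86. Ifng did not pass the variance filter and was not tested. Cxcl9, a chemokine for T cells, at day 7 was 10.11, 9.45, 4.45 and 13.19 in VC+ mice, against 9.29, 2.89, 3.42 and 4.40 in VC- mice, again lowest in VC+ mice on replicate 3. Cxcl10 was 10.33, 10.03, 6.59 and 12.40 in VC+ mice at day 7, against 6.51, 6.98 and 6.4 at day 0 (3.21 ± 1.07, adjusted p = 0.154). Ifnb1 stayed between 2.34 and 2.44 and Socs1, an inhibitor of both pathways, between 1.69 and 1.89 on all arrays. The markers of T and natural killer cells, 10 measured of 12 listed, had a mean of 3.64 to 4.36 on VC+ day 7 and 3.30 to 4.17 on VC- day 7, and Cd3e, Prf1 and Ncr1 were under 3 on all arrays. Relative to the mean of each gene, the T and natural killer cell mean on VC+ day 7 replicates 1 to 4 was 0.51, 0.29, -0.22 and 0.47, lowest on replicate 3 like the GTPases. The smooth muscle mean (4 markers) was -1.43, -1.36, 0.08 and -1.50, highest on replicate 3. The macrophage and monocyte mean was 0.49, 0.51, 0.73 and 2.14, highest on replicate 4. On VC- day 7 replicates 1 to 4 the T and natural killer cell mean was -0.02, -0.35, 0.31 and -0.56, highest on replicate 3. The GTPase mean on these arrays was 1.44, -1.28, -1.07 and -0.64, highest on replicate 1. The part of these cells in the GTPase signal was not tested.

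Of 98 other genes of the interferon pathways, 83 were measured and 68 tested. At day 7 in VC- mice, 7 of the 68 passed the test upward and 3 downward, beside 5.53% and 5.06% of all genes, with a median of -0.11 beside -0.09. The receptor chains Ifnar2 and Ifnar1 rose by 2.84 and 1.26 (adjusted p = 0.0384 and 0.0306), Stat3 by 2.25 (adjusted p = 0.00238) and Sting1, the adaptor of DNA sensing, by 2.90 (adjusted p = 0.00994). On VC- day 7 replicates 1 to 4 Ifnar2 was 3.77, 9.06, 6.42 and 5.39, and Ifnar1 6.99, 9.01, 7.75 and 7.84. Both were highest on replicate 2, an array with Prss2 signal. At day 0 Ifnar2 was 3.15 to 3.60, without overlap, and Ifnar1 6.17 to 7.05, which overlaps. Fits with an array left out were not read for the pathway genes. Socs3, an inhibitor of cytokine signaling, rose by 6.31 (adjusted p = 2.26e-05). The 3 that fell were Herc6, the ligase that attaches ISG15, by 3.35 (adjusted p = 0.0374), Ifi27l2a by 1.90 (adjusted p = 0.04) and Isg20 by 1.30 (adjusted p = 0.038). In VC+ mice, where 1.32% of all genes rose and 0.429% fell, 2 of the 68 rose, Socs3 by 6.06 (adjusted p = 4.39e-05) and Ifitm1, and 1 fell, Ifi27 by 1.21 (adjusted p = 0.0267). The interferon gamma receptor chains Ifngr1 and Ifngr2 had estimates of 0.37 and 0.09 in VC- mice and 0.30 and -0.17 in VC+ mice. At day 7 against day 2, 6 of the 68 rose and 0 fell in VC- mice, beside 3.45% and 2.15% of all genes. In VC+ mice 8 rose and 1 fell in that comparison, beside 4.76% and 2.83%. The genes of these counts are not named here.

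At day 2 no member passed the test against day 0 in either genotype, where 0% of all genes passed upward and 0.011% downward in VC- mice. In VC+ mice those shares were 0.011% and 0.044%. At an unadjusted p under 0.05, 2 members (Oas2 and Oasl1, -1.75 each) were lower and 0 higher in VC- mice, against 2.48% and 2.1% of all genes. In VC+ mice 0 were lower and 0 higher, against 4.07% and 2.51%. In VC- mice 30 of 35 estimates were negative, with a median of -0.96 (-0.43 without VC- day 2 replicate 1), and the 3 day 2 arrays lay below the 3 day 0 arrays for 15 members, against 6.61% of all genes, among them all 5 oligoadenylate synthetases. They lay above for 1 member, Irf1, against 7.83%. Hoxb13 was lower on these 3 day 2 arrays than on all 3 day 0 arrays. Day and colon position thus cannot be told apart in this comparison. The GTPase median was 0.18. In VC+ mice 30 of 35 were negative, with a median of -0.73 and no member without overlap, where 6.27% of all genes were lower and 4.17% higher without overlap. This median was -1.39 with VC+ day 2 replicate 1 left out, -0.34 with replicate 4 left out, and -0.36 with VC+ day 2 replicate 5 or VC+ day 0 replicate 2 left out.

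The VC+ day 2 arrays were spread widely in these genes. Among the 5 the median SD of the members was 1.58, against 0.31 for all genes tested, and 32 of 35 members (91.4%) were among the 5% of genes with the largest SD in that group. Ifit1 stood there at 11.19, 10.60, 3.83, 5.00 and 4.57, and Usp18 at 10.98, 8.89, 4.45, 4.38 and 5.38. Both genes were high on replicates 1 and 2 and low on replicates 3, 4 and 5. In the other groups the median SD of members was 0.35 to 1.06, and 2 to 10 of 35 were among the upper 5%. The correlations between the VC+ day 2 arrays over all genes were 0.924 to 0.985. Hoxb13 was 12.42, 3.07, 9.45, 10.44 and 11.19 on them, with the low value on replicate 2. Xist was above 8 on replicates 4 and 5. Their colonocyte marker means were 12.39 to 12.83. Relative to the mean of each gene, their T and natural killer cell marker means were -0.25, 0.33, -0.82, -0.77 and -1.08. Those of plasmacytoid dendritic cells, 5 measured of 5 listed with Siglech under 3 on all arrays, were 0.16, -0.04, -0.43, -0.52 and -0.49. Both means were higher on replicates 1 and 2 than on the other 3, as the interferon response genes were. Bst2, among the 5 plasmacytoid dendritic cell markers, is itself an interferon response gene and was 10.52, 8.73, 7.97, 7.17 and 7.72 there. Irf8, also among the 5, was 9.62, 10.12, 8.87, 8.71 and 8.86 on these arrays, likewise higher on replicates 1 and 2. The order of that mean is thus in part that of Bst2, a member, and of Irf8. The remaining markers of the list were not read apart from them. The part of these cells in the spread was not tested.

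**Figure D5:**
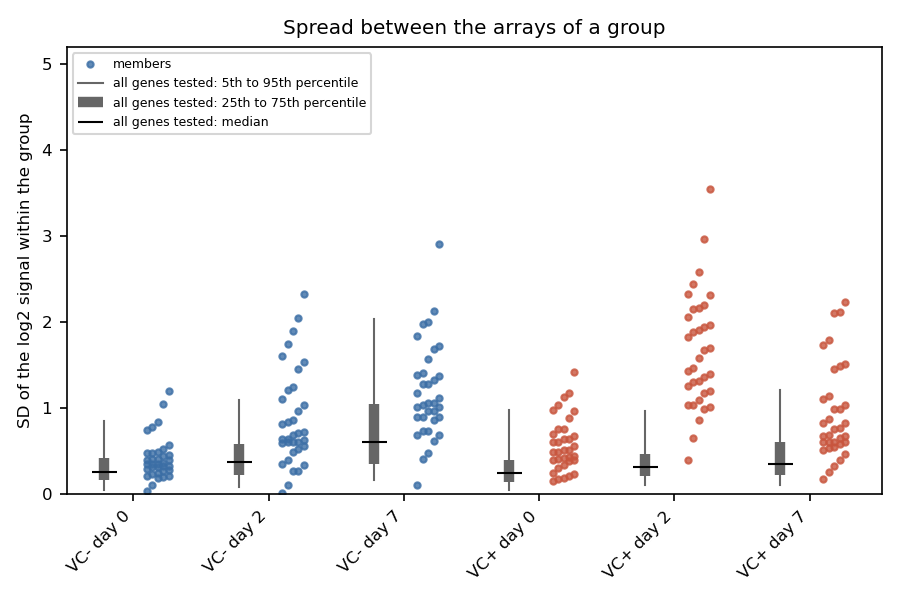
SD of the log2 signal between the arrays of each group, for the 35 interferon response genes tested (points, blue VC-, red VC+) and for all 9097 genes tested (grey, median with the 25th to 75th and 5th to 95th percentiles). In VC+ day 2 the members have a median SD of 1.58 against 0.31 for all genes.

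VC+ and VC- mice did not differ in any member by the test at day 0, 2 or 7, where 0%, 0% and 0% of all genes were higher and 0.011%, 0.044% and 0% lower in VC+ mice. At day 0, 33 of 35 estimates were negative (lower in VC+), with a median of -0.66 against -0.01 over all genes, and 6 members (Irf9, Oas2, Usp18, Rtp4, Zbp1 and Eif2ak2) were lower on all VC+ arrays, against 10.6% of all genes, and 0 higher, against 9.66%. This median was -0.35 without VC+ day 0 replicate 1. Relative to the mean of each gene, the colonocyte marker mean at day 0 was 0.66, 0.58 and 0.73 in VC- mice. In VC+ mice it was 0.11, -0.76 and -0.56, without overlap. Of the 7 colonocyte markers tested, 4 estimates were negative (down to -5.68) and 3 positive. Hoxb13 was 7.29 to 9.67 in VC- and 12.42, 3.09 and 2.88 in VC+ mice at day 0. The part of colonocytes and of position in this difference was not tested. At day 2, 26 of 35 were negative, with a median of -0.41, and the GTPase median was -1.14. Single arrays moved the median of -0.41. It was -1.02 with VC+ day 2 replicate 1 left out and -0.84 with VC- day 2 replicate 1 left out. It was -0.13, -0.07 and -0.07 with VC+ day 2 replicate 3, 4 or 5 left out and -0.04 with VC- day 2 replicate 3 left out. At day 7, 34 of 35 were positive, with a median of 0.83 against 0.08 and with 56.3% of all genes positive. The median was 0.29 without VC- day 7 replicate 2. The GTPase median at day 7 was 1.32. No member was free of overlap at day 2, where 3.72% of all genes were higher and 4.02% lower without overlap, or at day 7, where 0.901% and 0.451% were. The estimate for Iigp1 at day 7 was 1.95 (95% interval -0.12 to 4.03, adjusted p = 0.361) and that for Gbp2 1.64 (-0.18 to 3.46, adjusted p = 0.365). At an unadjusted p under 0.05, 0 members differed at day 0 (3.79% of all genes were higher and 2.8% lower in VC+ mice), 1 (Ifi47, -2.58) was lower at day 2 (6.69% and 5.64%) and 0 differed at day 7 (7.86% and 6.33%).

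The difference between the genotypes in the response to DSS was tested itself, as the interaction. No member passed at day 2, where 0.011% of all genes had a higher and 0.011% a lower response in VC+ mice, or at day 7, where 0% had either, and none reached an unadjusted p under 0.05, which 3.29% (higher) and 3.18% (lower) of all genes did at day 2 and 5.52% and 2.96% at day 7. At day 7, 35 of 35 estimates were positive, against 52.4% of all genes, with a median of 1.49 against 0.04. All 35 come from the same arrays, and this comparison shares its arrays with those of each genotype and day. The largest, for Zbp1, was 2.50, and that for Gbp2 was 2.49 (95% interval -0.29 to 5.27, adjusted p = 0.608). That for Oas2 was 1.44 (-0.23 to 3.12, adjusted p = 0.612) and that for Ifitm3 0.16 (-0.81 to 1.12). The interaction at day 2 holds the day 2 arrays of both genotypes, which are not balanced in Hoxb13.

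For the 13 members with several probe sets, the day 7 estimates of the others had the same sign as those of the probe set kept, except for Eif2ak2 above, Stat2 (-0.21 and 0.13), Dtx3l (0.12 and -0.10), Dhx58 (-0.72 and 0.01) and Xaf1 (-0.73 and 0.07) in VC+ mice and Gbp2 (-0.20 and 0.01) in VC- mice.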

How the data were processed

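RNA of colonic mucosa was measured on 22 Affymetrix mouse expression arrays. The deposited table holds log2 signals for 45101 probe sets, which the authors computed with GC-RMA in R 2.10.1 per the submitters' processing notes. The values were used as deposited. Probe sets were named from the platform annotation (34958 with 1 gene symbol, 932 with several), and the 50% of genes with the largest interquartile range were tested. Linear models with 6 group means were fitted in limma 3.58.1 (R 4.3.3) over all arrays, with Benjamini-Hochberg adjustment within each of 11 contrasts and a threshold of 0.05. The number of arrays limits the precision. GC-RMA draws dim probe sets toward a common low level (41.7% of values were under 3), which can understate the fold of a dim gene.

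The members and gene lists were chosen with earlier results of these data known. Every member was named at least once, with values by array for members that passed the test, or, in roles where none did, for the member with the widest range of group means. Beside these, Ifng, Ifnb1, receptor chains, Cxcl9, Cxcl10, Socs1 and the pathway genes that passed the test at day 7 against day 0 were given. Lists are described by counts and medians without a set test. The pathway list was corrected for 1 renamed gene and 1 synonym once the annotation was read. Alternatives covered the filters, the probe set per gene, normalization, array weights, the samples fitted, terms for the replicate number, Hoxb13 and Xist, and left-out arrays. Promoters are from RefSeq.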

Additional observations from a re-analysis of the deposited data

Results flagged for a closer look

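Of 108 sets of values (1 gene in 1 group of 4 or 5 arrays), 13 held an array far from the others by Dixon's criterion, which chance meets in about 1 of 20 sets. The 13 fell on 3 arrays and are not independent, since the genes move together. On VC- day 7 replicate 2, an array with Prss2 signal and the lowest colonocyte marker mean, the log2 signal was lowest for Ifit1 (3.01), Ifit3 (5.28), Irf7 (4.81), Oas1a (6.32), Ifih1 (8.21) and Parp14 (7.75). On VC+ day 2 replicate 1 it was highest for Stat2 (9.0), Mx2 (4.62) and Gbp2 (12.83). On VC+ day 7 replicate 3, the array of that group with the lowest GTPase mean, it was lowest for Oas2 (6.21), Usp18 (6.23), Dhx58 (5.01) and Parp9 (9.06).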

How the results depend on the processing

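The 5 members called at day 7 against day 0 in VC- mice became 2 with no variance filter, 8 with dim probe sets left out, 3 with the mean of all probe sets, 0 when the fit held the compared groups alone, 3 with a term for Hoxb13, 2 with a term for Xist and 1 without the 3 arrays with Prss2 signal. They ranged from 1 to 12 when each array was left out. The 1 call in VC+ mice became 3 with array quality weights and 0 with only the groups compared, and ranged from 0, when VC+ day 0 replicate 3 was left out, to 2, when VC+ day 7 replicate 3 was. At day 7 against day 2 the 1 call in VC- mice became 0 with only the groups compared or a term for Xist and was 1 whichever array was left out. In VC+ mice it became 2 with dim probe sets left out and 9 with array quality weights, and ranged from 1 to 5, being 5 when VC+ day 7 replicate 3 was omitted, 3 when VC+ day 2 replicate 1 was, and 2 when VC+ day 2 replicate 2 or VC- day 7 replicate 1 or 2 was. Array quality weights also gave 11 calls at day 2 in VC+ mice, 1 between the genotypes at day 7 and 1 in the interaction at day 7, where 0 were called otherwise. The cause was not tested.

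Between same-numbered arrays of different groups 18 of 48 correlations of their deviations were above 0.1, against 36 of 152 between other numbers. The mean correlations were 0.0842 and -0.0267, and for 13 of 22 arrays the closest array shared its number. The main fit did not take the numbers as pairing the samples, although these values do not exclude a shared deviation by number. With the replicate block the count at day 7 against day 0 in VC- mice was 2.

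The call of Oas2 was lost in 3 of 22 fits without 1 array, that of Xaf1 in 13, that of Rtp4 in 11 and that of Oas3 in 15. Without the 3 arrays with Prss2 signal the adjusted p (limma) was 0.17 for Oas2, 0.249 for Oas3, 0.274 for Rtp4 and 0.288 for Xaf1. Ifitm3 in VC+ mice was lost without VC+ day 0 replicate 3 (adjusted p = 0.063). No value changed sign past the threshold. Without the Prss2 arrays, chosen for these counts after seeing the data, 7 members rather than 5 were lower on all VC+ day 7 arrays.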
